A study of Mus musculus with 32 samples.

Results

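The data were 16 arrays of distal colon RNA from Myd88 knockout mice, 10 titled treated and 6 titled untreated, out of 32 arrays in the series. They were chosen by their titles, and the study's design text calls the arrays of a group biological repeats. All 16 mice carried the genotype Myd88-/- in the strain labelled C57 BL6NCr, backcrossed to a congenicity of at least 98%, so the untreated controls lacked Myd88 as well. Treated mice were injected intraperitoneally with the colon carcinogen azoxymethane (AOM) at 10 mg/kg when 6 to 8 weeks old. After a gap of 1 week they drank 2% dextran sodium sulfate (DSS), a polymer that injures the colon lining, for 3 days and were then killed, and their arrays carry the disease state colitis. For untreated mice the labels give no age, injection or housing, so the regimen and other differences in handling cannot be told apart. The other 16 arrays, 10 treated and 6 untreated, came from wild-type controls and are used at the end, for the difference of the responses.

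Myd88 is the adaptor that most Toll-like receptors and the receptors of IL-1 and IL-18 signal through. In the colon these receptors sense bacteria and injury, and the epithelium answers with cytokines, antimicrobial proteins and repair. The epithelium itself renews from stem cells at the base of crypts, whose daughters divide, migrate upward and become absorptive colonocytes, mucus-secreting goblet cells or hormone-secreting enteroendocrine cells.

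Levels are log2 signals of probe sets, so a difference of 1 is a 2-fold change, and the deposited values have a floor of 3.322 below which no level was resolved. A change is treated minus untreated knockout as fitted with limma, ± its standard error. A gene is called, and said to have risen or fallen, at an adjusted p under 0.05 over 34945 probe sets. Each gene is given by its brightest probe set, which gave 18193 genes. For the groups the lowest, median and highest array are given.

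The treated arrays were unequal in how far they lay from the untreated ones. Each array was placed on the line between the mean of the other untreated arrays, set to 0, and the mean of the other treated arrays, set to 1. Untreated arrays lay between 0.071 and 0.347. Treated repeat 9 lay at 0.209, among the untreated arrays, repeats 1 and 6 lay at 0.521 and 0.522, and repeat 8 at 0.715. The 6 remaining treated arrays lay between 0.982 and 1.316. Of the 1748 genes called below, repeat 9 lay within the range of the untreated arrays for 913 (52.2%), repeat 6 for 394 (22.5%) and the other treated arrays for 5.0% to 16.2%.

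**Figure D1:**
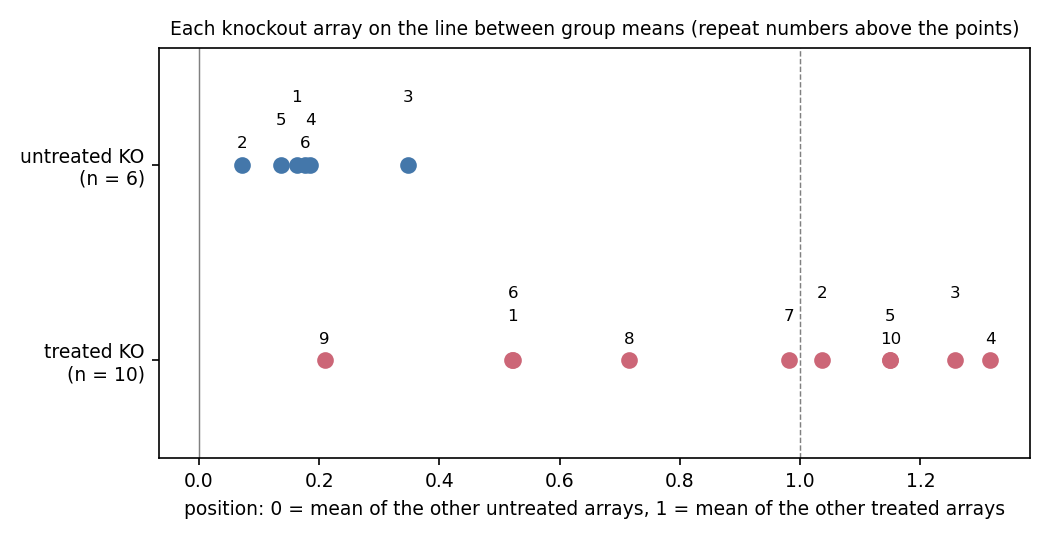
Position of each of the 16 knockout arrays (points, with repeat numbers) along the line from the mean of the other untreated arrays (0) to the mean of the other treated arrays (1). Treated repeat 9, at 0.209, sits among the untreated arrays, which reach 0.347, and the other 9 treated arrays lie at 0.521 or above.

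Other tissue showed on some arrays. The mean of 17 squamous epithelium genes, which the lining of the anus and skin express, was above 7 on treated repeats 3, 8 and 10 (7.895, 7.952 and 7.392) and on untreated repeat 3 (8.211), and between 4.590 and 6.695 on the rest. For 15 skeletal muscle genes the mean peaked on treated repeat 9 (9.827), followed by untreated repeat 3 (8.376). With treatment, 1 of 17 squamous genes rose, at a list median of 0.10, and 0 of 15 skeletal muscle genes were called, at a median of 0.40. A list of 13 colon epithelium genes averaged between 11.8 and 12.2 on all 16 arrays, and a list of 11 small intestine genes averaged between 4.20 and 5.00. Because of these arrays, counts are also given without treated repeat 9 and without the 4 arrays of high squamous signal, which leaves 7 treated and 5 untreated arrays. The single probe set of Myd88 read 7.51, 7.67 and 7.79 in untreated and 7.48, 8.07 and 8.31 in treated knockout mice (0.33 ± 0.13, adjusted p = 0.134). The position of the deletion relative to this probe set is not given in the sources used here, so the level checks no label.

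The comparison of treated with untreated knockout mice asks what changed in a colon without Myd88 after a carcinogen and a short course of colon injury. Falling genes included ones of mitosis, crypt stem cells, chloride secretion, drug metabolism and plasma cells. Rising genes included gut hormones, endoplasmic reticulum (ER) chaperones, wound-repair genes and some interferon-induced genes. By probe sets, 1433 rose (4.1% of 34945) and 1493 fell (4.27%), together 8.37%. By genes, 833 rose (4.58% of 18193) and 915 fell (5.03%), together 9.61%. Of these, 132 rose and 158 fell by at least 2-fold, and 21 rose and 19 fell by at least 4-fold. For 372 genes (2.04%) no treated array overlapped an untreated one, with all treated arrays higher for 195 (1.07%) and lower for 177 (0.973%). Without treated repeat 9 the number of called genes was 2547, without untreated repeat 2 it was 1053, and without the 4 arrays of high squamous signal it was 575. With all arrays kept and the squamous and skeletal muscle list means as covariates it was 2444. The 4 arrays left out included treated repeats 3 and 10, at positions 1.258 and 1.15, so fewer arrays and lower squamous signal cannot be told apart there. With the 3'/5' control difference as a covariate the number was 1209. That control is the 3' minus the 5' signal, as the mean of Gapdh and Actb controls, and rises with RNA that is degraded or copied in part. It lay between -0.097 and 0.0365 in treated and between -0.0655 and 0.041 in untreated mice; for Actb alone the ranges were 0.269 to 0.450 and 0.365 to 0.597. Its part in the results was not tested beyond that covariate. Of the 131 called genes named here, 131 passed without treated repeat 9 and 69 without those 4 arrays. Treated repeat 9 was singled out for lying near the untreated arrays on this same response. Leaving it out thus favours calls, so counts without it are no independent check. The share that rose was 47.7%. It was 70.1% of 1332 genes when arrays were centred on their medians, which shifts the median of all genes by 0.06, and 39.4% of 1735 genes with the values as deposited. In a bulk sample, fewer cells of a type and less RNA per cell cannot be told apart, and this holds for every cell type list that follows.

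**Figure D2:**
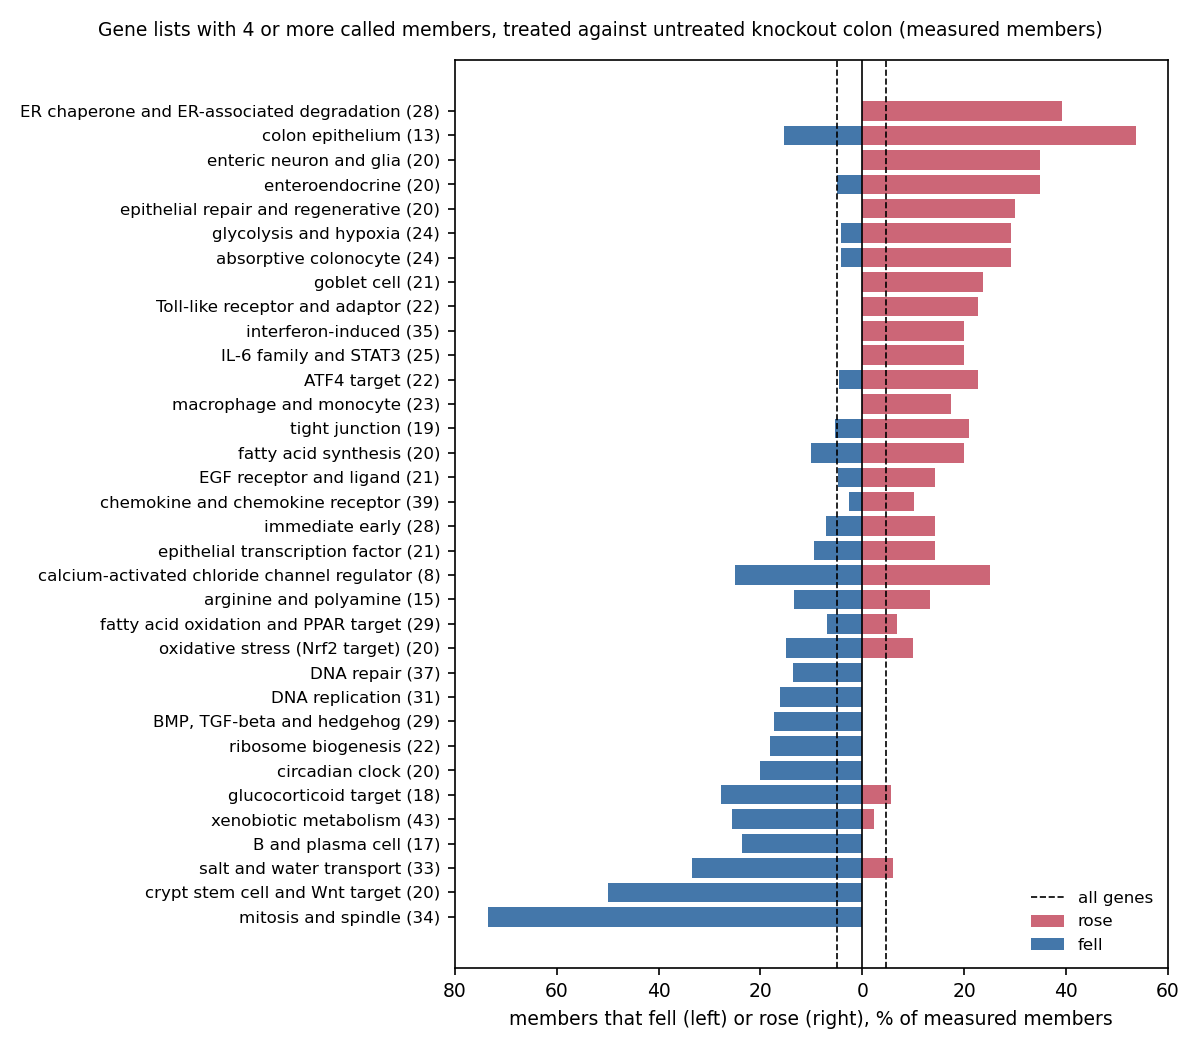
Percentage of the measured members (number in brackets) of each gene list that rose (right) or fell (left) in treated against untreated knockout colon, for lists with 4 or more called members. Dashed lines mark the shares of all genes, 4.58% rising and 5.03% falling; mitosis genes reach furthest on the falling side (25 of 34) and colon epithelium genes on the rising side (7 of 13, but 2 of 13 with the values as deposited and 3 without the 4 arrays of high squamous signal).

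The steepest rise was in an epithelial chloride channel regulator. Clca4b, of the calcium-activated chloride channel regulator family, lay at 5.24, 5.78 and 7.07 in untreated and at 6.78, 11.41 and 13.02 in treated mice. Repeat 6 was the only treated array within the untreated range, and the change was 4.68 ± 0.96 (25.6-fold, adjusted p = 0.00968). Its relative Clca4a was bright in both groups and rose by 1.23 ± 0.34 (adjusted p = 0.0396, a call lost in 12 of 16 fits that leave out an array). Clca3b, of the same family, went the other way on every treated array, from 9.45 to 10.07 in untreated to 7.19 to 9.29 in treated mice (-1.43 ± 0.23, adjusted p = 0.00339). Clca3a2 fell by 1.20 ± 0.27, and Clca1, which goblet cells secrete with mucus, stood at 0.05 ± 0.09 (adjusted p = 0.780). The 8 measured genes of this family thus split, with 2 up and 2 down, and without the 4 arrays of high squamous signal 0 rose and 2 fell.

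Of 22 epithelial antimicrobial genes 1 rose and 0 fell, a share near that of all genes. It was Slpi, whose rise was among the largest. Slpi, a protease inhibitor that protects epithelia from neutrophil enzymes, went from 7.27, 7.72 and 9.33 to 8.60, 11.65 and 12.50 (3.43 ± 0.52, adjusted p = 0.00240). Only treated repeat 6 lay within the untreated range. Retnlb, a goblet cell protein that acts on gut bacteria, went from 3.32, 4.11 and 6.16 to 3.32, 9.40 and 11.60 (4.30 ± 1.14, adjusted p = 0.0317). Treated repeats 6 and 8 lay within the untreated range, and the call was lost in 10 of 16 fits that leave out an array. Ang4, another antimicrobial secretory protein, was as uneven, at 3.81, 5.59 and 9.70 in untreated and 5.87, 8.90 and 11.38 in treated mice, and was not called (2.34 ± 1.03, adjusted p = 0.182).

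Several less known genes parted the groups more cleanly. Cwh43, which acts on the lipid anchor of membrane proteins, went from 5.49, 5.84 and 6.01 to 7.11, 8.58 and 9.35 (2.59 ± 0.31, adjusted p = 0.000807). The lowest treated array lay 1.10 above the highest untreated one. Aldh1a3, which makes retinoic acid, rose by 2.58 ± 0.42, and its other 2 probe sets rose by 2.99 ± 0.48 and 2.81 ± 0.48. Mgat4c, a glycosyltransferase, rose by 2.56 ± 0.32, from at most 8.30 to at least 8.53. Capg, which caps actin filaments, rose by 2.02 ± 0.30 (adjusted p = 0.00231), while its dimmer probe set was not called (0.58 ± 0.34). Plek2, which acts on the actin skeleton, rose by 1.44 ± 0.21, with 10 of 10 treated arrays above all untreated ones. Fosl1, an AP-1 transcription factor of wounded epithelium, rose by 1.72 ± 0.26, but its other probe set, dimmer still, was at 0.18 ± 0.35.

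For some risers the untreated level lay at or near the floor, so the fold change is too small where the true level was lower. Dmp1, a matrix protein best known from bone, was at the floor on 5 of 6 untreated arrays and at a median of 6.83 in treated mice (2.99 ± 0.71, adjusted p = 0.0191). Isx, an intestinal homeobox factor that represses vitamin A uptake, was at the floor on 4 of 6 untreated arrays and at a median of 7.01 in treated mice (2.85 ± 0.60, adjusted p = 0.0107). Treated repeat 9 was at the floor for both genes, within the untreated range. Lpcat4, a lysophospholipid acyltransferase, rose by 2.87 ± 0.45 from 4 untreated arrays at the floor. Khdc1a, a gene of germ cells by its usual expression, rose by 2.82 ± 0.64, with no overlap of the groups. Cxcl5, a neutrophil-attracting chemokine, rose by 2.52 ± 0.46 from 3.80, 4.15 and 4.70 to 5.02, 6.56 and 8.40, also without overlap. Serpina3n, an acute-phase protease inhibitor, rose by 2.65 ± 0.75 (adjusted p = 0.0424, a call lost in 13 of 16 fits that leave out an array). Without the 4 arrays of high squamous signal Dmp1, Isx, Khdc1a and Serpina3n were not called, while Lpcat4 and Cxcl5 still were.

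**Figure D3:**
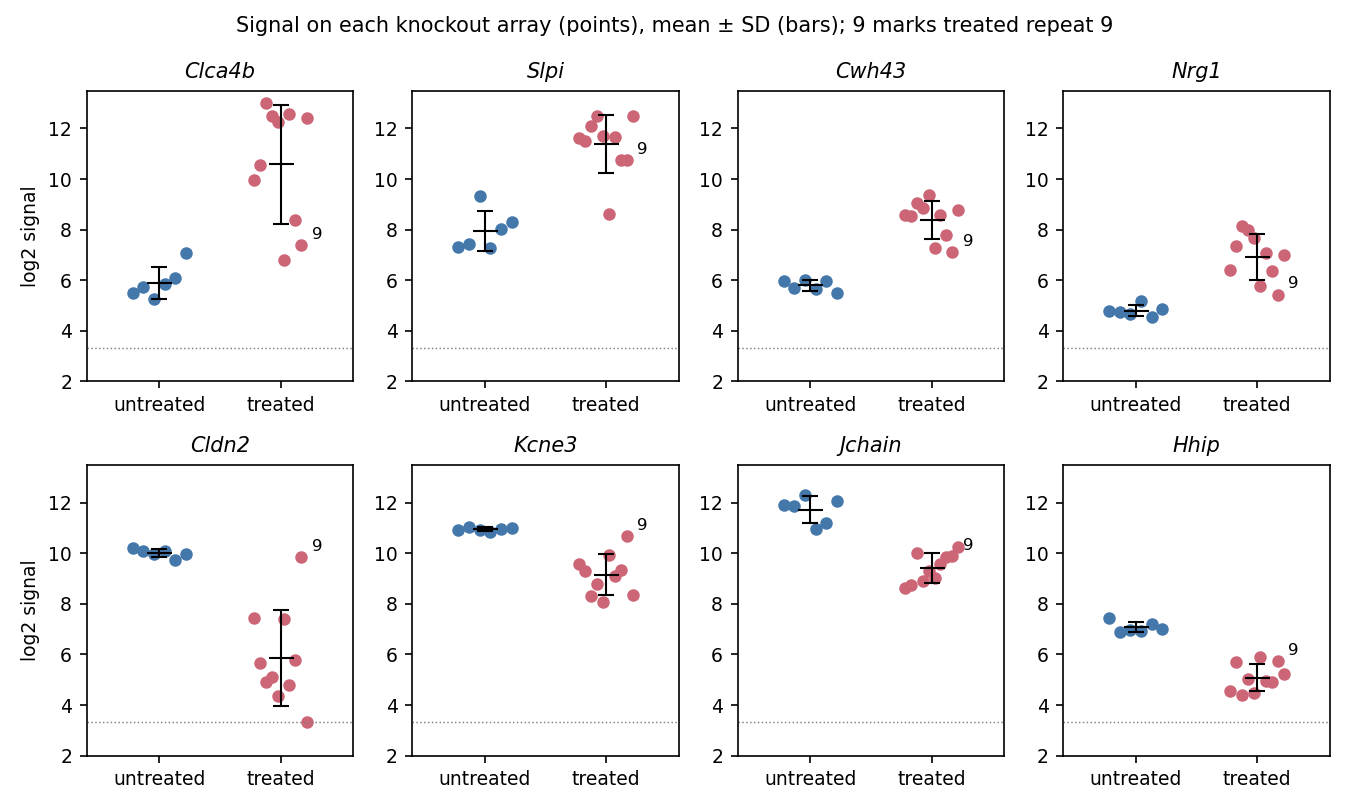
Log2 signals of 8 genes on each of 6 untreated and 10 treated knockout arrays (points; bars are mean ± SD; the dotted line is the floor at 3.322), with treated repeat 9 marked. Clca4b and Cldn2 spread widely over the treated arrays, with medians of 11.41 and 5.39, while Cwh43, Nrg1, Jchain and Hhip part the groups without overlap.

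Among genes of salt and water transport, several that serve chloride secretion fell, and the main absorptive exchanger did not pass the test. Without the 4 arrays of high squamous signal Kcne3 was still called, while Cftr, Slc12a2, Kcnq1, Kcnn4, Ano1 and Best2 were not. In the colon, chloride leaves crypt cells through an apical channel, is loaded by a basolateral cotransporter, and is driven by potassium channels. Cftr, the apical chloride channel, went from 8.84, 8.99 and 9.32 to 6.40, 7.48 and 8.98 (-1.51 ± 0.36, 2.85-fold, adjusted p = 0.0190). Repeat 9 was the only treated array in the untreated range. Slc12a2, the cotransporter that loads the cell with chloride, went from 10.54, 11.11 and 11.25 to 9.30, 9.87 and 10.67 (-1.01 ± 0.19, adjusted p = 0.00583). Kcne3, a subunit of the basolateral potassium channel, went from 10.86, 10.96 and 11.06 to 8.08, 9.22 and 10.68 (-1.81 ± 0.32, adjusted p = 0.00532). All 10 treated arrays of Kcne3 were below all untreated ones. Kcnq1, which forms the channel with Kcne3, fell by 1.42 ± 0.33 (adjusted p = 0.0180). Kcnn4, the calcium-activated potassium channel of the same membrane, was nearly constant in untreated mice (9.17, 9.21 and 9.25) and lay at 5.75, 7.47 and 9.14 in treated mice, without overlap (-1.85 ± 0.46, adjusted p = 0.0241). Its call was lost without untreated repeat 1 and without untreated repeat 2. The calcium-activated chloride channel Ano1 (-0.77 ± 0.20, adjusted p = 0.0321) and the bicarbonate channel of goblet cells Best2 (-1.02 ± 0.30, adjusted p = 0.0497) fell too, with calls lost in 8 and 12 of 16 fits that leave out an array.

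On the absorptive side the picture was mixed. Scnn1g, the gamma subunit of the epithelial sodium channel, fell from 6.63, 7.20 and 7.36 to 5.02, 6.09 and 7.24 (-1.07 ± 0.25, adjusted p = 0.0176). The alpha subunit Scnn1a was at 0.23 ± 0.13 and the beta subunit Scnn1b at -0.15 ± 0.16, both without a call. Sgk1, the aldosterone-induced kinase that activates this channel, fell by 1.01 ± 0.19 (adjusted p = 0.00634), with 10 of 10 treated arrays below the untreated ones. Slc26a3, the chloride-bicarbonate exchanger of the surface, stood at 13.20, 13.30 and 13.37 in untreated and 12.77, 13.20 and 13.43 in treated mice (-0.09 ± 0.08, adjusted p = 0.550). Slc9a3, the sodium-hydrogen exchanger, was at 1.15 ± 0.38 and not called (adjusted p = 0.0771). Slc5a8, which takes up butyrate, and Slc5a1, which takes up glucose, fell by 0.90 ± 0.26 and 0.79 ± 0.22, calls that were lost in 13 and 11 of 16 fits that leave out an array. The water channel Aqp4 rose from 9.32, 9.59 and 10.06 to 10.27, 11.11 and 12.15 without overlap (1.54 ± 0.24, adjusted p = 0.00273). Aqp8, the water channel of surface colonocytes, was at -0.35 ± 0.14 (adjusted p = 0.139). In all, 11 of 33 salt and water transport genes fell and 2 rose, at a median of -0.35, where the median of all genes was 0. Without treated repeat 9 the counts were 12 and 4, and without the 4 arrays of high squamous signal 2 fell and 2 rose, at a median of -0.34. With the 3'/5' covariate 7 fell and 1 rose.

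The largest fall of the comparison was in a tight junction gene. Cldn2, a claudin that forms pores for sodium and water between cells, stood at 9.72, 10.02 and 10.20 in untreated and at 3.32, 5.39 and 9.83 in treated mice (-4.14 ± 0.76, 17.6-fold, adjusted p = 0.00583). Treated repeat 9 was the highest treated array and the only one within the untreated range, and 1 treated array was at the floor. Its other probe set fell by 2.80 ± 0.48. Without the 4 arrays of high squamous signal the gene was not called. Of the sealing claudins, Cldn8 rose by 0.76 ± 0.13 (adjusted p = 0.00362) and Cldn4 by 0.69 ± 0.16 (adjusted p = 0.0171). Cldn7, the brightest member of this list that did not pass, stood at 0.28 ± 0.10 (adjusted p = 0.0873), and Cldn15, like Cldn2 a pore-forming claudin, was at -0.74 ± 0.25 (adjusted p = 0.0857). Over the 19 measured junction genes, 4 rose and 1 fell, against 6 and 2 without treated repeat 9 and 2 and 0 without the 4 arrays.

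**Figure D4:**
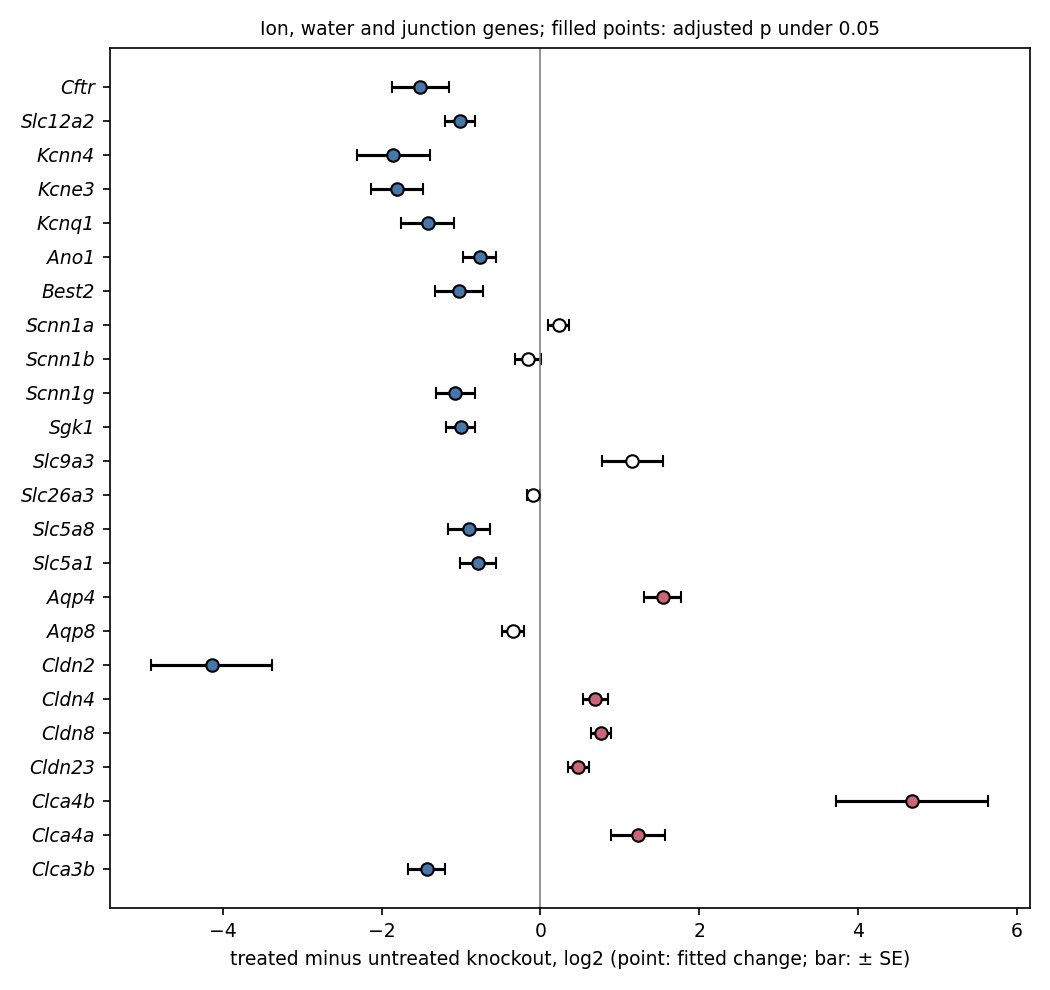
Fitted change (point) ± SE (bar) of 24 ion, water and junction genes in treated minus untreated knockout colon, on the log2 scale; filled points passed an adjusted p of 0.05. Genes of chloride secretion, from Cftr to Best2, lie left of 0, Aqp4 and the sealing claudins Cldn4, Cldn8 and Cldn23 lie right of it, and Cldn2 (-4.14) and Clca4b (4.68) lie furthest out.

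Several hormone genes of enteroendocrine cells rose, as did the granule protein Scg2, while the granule marker Chga was not called. Pyy, the peptide of distal L cells, went from 10.09, 10.22 and 10.30 to 10.91, 11.75 and 12.12 (1.38 ± 0.17, adjusted p = 0.000807). Gcg, which encodes glucagon-like peptides of the same cells, went from 8.59, 8.75 and 8.87 to 9.23, 10.26 and 11.05 (1.59 ± 0.25, adjusted p = 0.00304). Insl5, another L cell hormone, went from 10.10, 10.27 and 10.80 to 10.91, 11.50 and 11.90 (1.09 ± 0.15, adjusted p = 0.00204). For these 3 hormones every treated array was above every untreated one, repeat 9 included. Tac1, the precursor of substance P in enterochromaffin cells and neurons, rose by 1.02 ± 0.19, and the granule protein Scg2 by 0.85 ± 0.12, again without overlap. Neurod1, a factor of maturing endocrine cells, rose by 0.89 ± 0.20 (adjusted p = 0.0140). Neurog3, the factor of their early progenitors, went the other way, from 4.79, 5.26 and 5.86 to 3.32, 4.30 and 5.46 (-1.03 ± 0.30, adjusted p = 0.0459, a call lost in 13 of 16 fits that leave out an array). Chga, the general granule marker, was at 0.62 ± 0.22 and not called (adjusted p = 0.0961). Of 20 enteroendocrine genes 7 rose and 1 fell, and 18 were higher, at a median of 0.66. The 7 were 8 without treated repeat 9 and 5 without the 4 arrays of high squamous signal. Tac1, Scg2 and Chga are also expressed by enteric neurons, whose list is given below.

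Among differentiated epithelial cells, several bright markers did not pass while other genes of the same cells moved. Of the goblet cell genes, the main mucin Muc2 was at 0.23 ± 0.10 (adjusted p = 0.171) and the lineage factor Atoh1 at -0.65 ± 0.22 (adjusted p = 0.0781). Spink4, a goblet cell protease inhibitor, rose by 0.60 ± 0.11, Capn9, a protease of mucus cells, by 0.65 ± 0.13, and Galnt12, which starts mucin glycosylation, by 0.58 ± 0.12. In all 5 of 21 goblet genes rose and 0 fell, and without the 4 arrays of high squamous signal 0 were called. Among absorptive colonocyte genes, Emp1, a membrane protein of surface cells, went from 8.80, 9.51 and 9.67 to 9.63, 11.89 and 12.68 (2.21 ± 0.40, adjusted p = 0.00551), with repeat 9 alone inside the untreated range. Guca2a, the hormone guanylin, rose by 0.95 ± 0.18 (adjusted p = 0.00642) and the brush border motor Myo1a by 0.37 ± 0.08. Mep1a, a brush border protease, fell from 10.62, 10.90 and 11.04 to 9.25, 10.08 and 10.39 without overlap (-0.81 ± 0.14, adjusted p = 0.00470). Car1, the carbonic anhydrase of colonocytes, was at 0.14 ± 0.07 (adjusted p = 0.205). Of 24 absorptive genes 7 rose and 1 fell (2 and 1 without the 4 arrays of high squamous signal), and the list median of 0.11 was -0.03 when arrays were centred on their medians and -0.11 without any rescaling.

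Genes of crypt stem cells and Wnt targets fell. Ascl2, the transcription factor of crypt stem cells, stood at 6.66, 6.75 and 7.04 in untreated mice and at the floor on 7 of 10 treated arrays, with the highest treated array, repeat 9, at 6.56 (-2.95 ± 0.42, adjusted p = 0.00208). Values at the floor have no order, and its other 2 probe sets fell by 2.12 ± 0.29 and 2.05 ± 0.33. Lgr5, the receptor that marks these cells, went from 6.26, 6.57 and 6.89 to 3.32, 4.93 and 6.07 without overlap (-1.80 ± 0.32, adjusted p = 0.00511). Axin2, a feedback target of Wnt signals, went from 6.81, 7.26 and 7.57 to 5.41, 5.99 and 7.03 (-1.21 ± 0.20, adjusted p = 0.00416), with repeat 9 alone inside the untreated range. Lrig1, a growth factor inhibitor of the crypt base, fell by 0.89 ± 0.18, and Cdca7, a chromatin factor of dividing cells, by 1.27 ± 0.27. Prom1, which crypt and surface cells both express, was the brightest member not called, at 0.88 ± 0.36. In this list, 10 of 20 members fell and 0 rose, at a median of -0.62. The count was 10 without treated repeat 9, where 1 rose, and 4 without the 4 arrays of high squamous signal, at a median of -0.46.

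Mitotic genes made up the list with the largest share of falls. All 34 measured genes of mitosis and the spindle were lower, and 25 fell, at a median of -0.96. The count was 26 without treated repeat 9 and 14 without the 4 arrays of high squamous signal, with medians of -0.99 and -0.95, and between 24 and 31 when any array was left out. Ccnb2, a mitotic cyclin, went from 8.19, 8.47 and 8.81 to 6.45, 6.80 and 7.65 without overlap (-1.61 ± 0.18, 3.04-fold, adjusted p = 0.000807). Ube2c, the ubiquitin-conjugating enzyme that starts mitotic exit, went from 8.23, 8.72 and 9.40 to 6.51, 7.39 and 8.28 (-1.39 ± 0.25, adjusted p = 0.00555). Mki67, the usual marker of dividing cells, fell by 1.18 ± 0.17 and Cdc20, which activates the same ubiquitin ligase, by 1.10 ± 0.18. Ect2, which positions the cleavage furrow, was not called (-0.61 ± 0.27, adjusted p = 0.179). Of 31 genes of DNA replication 5 fell, at a median of -0.35, against 12 without treated repeat 9, 0 without the 4 arrays of high squamous signal and 1 with the 3'/5' covariate. Pcna, the replication clamp, stood at -0.30 ± 0.13 (adjusted p = 0.164).

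Promoters were searched for motifs in the 250 bases before each RefSeq transcription start (assembly GRCm38.p6), on both strands, for the 14452 genes that had a listed start. The cell cycle homology region, TTTGAA, through which a repressor complex silences mitotic genes in resting cells, was found in 14.1% of all promoters, in 15.4% of promoters of all genes that fell, in 12 of 29 mitosis promoters (41.4%) and in 10 of the 20 of these whose genes fell. It was found about as often in promoters of the xenobiotic metabolism list, 15 of 36 (41.7%). A match is a description of the letters, not of a bound site. Ube2c and Cdc20 are shown because they fell and hold the motif close to the start, with the match in capitals. The Ube2c promoter lies at chr2:164769679-164769928 on the plus strand and reads the motif on the opposite strand, 29 to 24 bases before the start. The Cdc20 promoter lies at chr4:118437344-118437593 on the minus strand, with the motif 18 to 13 bases before the start.
Ube2c: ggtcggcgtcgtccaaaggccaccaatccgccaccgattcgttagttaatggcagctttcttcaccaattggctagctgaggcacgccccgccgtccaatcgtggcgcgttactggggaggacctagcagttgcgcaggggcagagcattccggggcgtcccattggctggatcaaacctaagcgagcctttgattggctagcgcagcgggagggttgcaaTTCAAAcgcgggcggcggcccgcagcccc
Cdc20: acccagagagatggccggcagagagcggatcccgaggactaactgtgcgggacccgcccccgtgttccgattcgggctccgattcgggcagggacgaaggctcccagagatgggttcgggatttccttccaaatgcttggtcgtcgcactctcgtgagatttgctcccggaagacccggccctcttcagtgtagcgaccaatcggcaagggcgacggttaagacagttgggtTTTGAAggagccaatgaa

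The hedgehog response genes Hhip, Ptch1 and Gli1 fell, with calls of unequal stability. Hedgehog proteins are secreted by the epithelium and received by stromal cells, which answer with Ptch1, Gli1 and Hhip. Hhip, a receptor-like protein that captures hedgehog ligands, went from 6.89, 7.00 and 7.45 to 4.40, 5.00 and 5.88, a gap of 1.01 between the groups (-1.99 ± 0.23, 3.98-fold, adjusted p = 0.000807). Its other 3 probe sets fell by 2.12 ± 0.34, 2.47 ± 0.33 and 2.22 ± 0.23. Ptch1, the ligand's receptor, went from 9.03, 9.42 and 9.84 to 8.03, 8.57 and 9.11 (-0.90 ± 0.16, adjusted p = 0.00497), with repeat 3 alone inside the untreated range, though the mean of its 3 probe sets did not pass. Gli1, the transcription factor of the pathway, was dim and fell by 0.86 ± 0.24 (adjusted p = 0.0408, a call lost in 12 of 16 fits that leave out an array). The ligand Ihh was at 0.22 ± 0.23, with values between 7.30 and 9.05 in treated mice. The transcriptional regulators Id2 (-0.64 ± 0.15) and Id3 (-0.74 ± 0.20), targets of BMP signals, fell as well, the latter with a call lost in 10 of 16 such fits. Of 29 genes of the BMP, TGF-beta and hedgehog list, these 5 fell and 0 rose, while the list median was 0.07. Without treated repeat 9, 6 fell and 3 rose, and in the fit of all 32 arrays 8 fell and 7 rose. Without the 4 arrays of high squamous signal 2 fell, and with the 3'/5' covariate 3 fell. The 23 fibroblast and collagen genes stood at a median of 0.22 with 0 called, and the 19 smooth muscle genes at 0.25 with 0 called. Wnt5a, a stromal Wnt ligand of wound beds, rose by 1.11 ± 0.29 (adjusted p = 0.0304, a call lost in 6 of 16 fits that leave out an array).

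Several chaperones of the endoplasmic reticulum rose by small amounts. The ER folds secreted and membrane proteins, and when unfolded protein accumulates, cells raise such chaperones, in part through an ER stress element in some promoters. Sdf2l1, an ER chaperone cofactor, went from 6.29, 6.68 and 7.01 to 7.12, 7.66 and 8.21 without overlap (0.98 ± 0.16, adjusted p = 0.00362). Pdia4, a disulfide isomerase, rose by 0.89 ± 0.17 and Dnajb11, a cochaperone, by 0.78 ± 0.12. With its probe sets averaged Pdia4 did not pass (adjusted p = 0.0615). Hspa5, the central chaperone BiP, went from 11.34, 11.56 and 11.66 to 11.41, 12.28 and 12.51 (0.59 ± 0.15, adjusted p = 0.0246), with treated repeats 6 and 9 in the untreated range. Its call was lost without untreated repeat 1, 3 or 5. Calr, a calcium-binding chaperone of glycoproteins, went from 11.22, 11.38 and 11.52 to 11.51, 12.07 and 12.37 (0.69 ± 0.12, adjusted p = 0.00426). Creld2, an ER protein of this response, rose by 0.58 ± 0.14 (adjusted p = 0.0236), a call lost without untreated repeat 1, 3 or 4. Xbp1, a transcription factor of the response and bright in secretory cells, was at 0.27 ± 0.11 (adjusted p = 0.146), and its level does not show its splicing. Of 28 ER chaperone and degradation genes 11 rose and 0 fell, at a median of 0.27. The count was 12 without treated repeat 9, 5 without the 4 arrays of high squamous signal, and between 6 and 14 when any array was left out. Of 22 ATF4 target genes, which serve amino acid supply in the same response, 5 rose and 1 fell (3 and 1 without those 4 arrays); Chac1, which degrades glutathione, rose by 0.78 ± 0.12 and Psat1, of serine synthesis, by 0.73 ± 0.13.

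The ER stress element was searched as CCAAT, any 9 bases, then CCACG, so that each match also contains the common CCAAT box. It was present in 19 of 14452 promoters (0.131%), 9 of them among 23 listed promoters of the ER chaperone list. Of those 19 genes 5 rose (Calr, Hspa5, Creld2, Hsp90b1 and Dnajc3) and 0 fell, and of the 10 outside the list 0 rose, at a median over the 19 of 0.04. The element was found in 5 of 11 promoters of called list members (45.5%) and in 39.1% of all listed promoters of that list. The risers Sdf2l1, Pdia4 and Dnajb11 had no match. Promoters of 3 of the risers are shown so that the matches, in capitals, can be compared. That of Hspa5 lies at chr2:34771840-34772089 on the plus strand, with the match 65 to 47 bases before the start. That of Calr lies at chr8:84846932-84847181 on the minus strand, with the match on the opposite strand 162 to 144 bases before the start. That of Creld2 lies at chr15:88819396-88819645 on the plus strand, with the match on the opposite strand 126 to 108 bases before the start.
Hspa5: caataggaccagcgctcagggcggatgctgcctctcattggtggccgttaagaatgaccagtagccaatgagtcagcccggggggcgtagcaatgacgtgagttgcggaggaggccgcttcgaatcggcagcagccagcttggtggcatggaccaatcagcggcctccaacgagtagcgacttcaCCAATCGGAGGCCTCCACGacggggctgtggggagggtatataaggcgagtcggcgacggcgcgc
Calr: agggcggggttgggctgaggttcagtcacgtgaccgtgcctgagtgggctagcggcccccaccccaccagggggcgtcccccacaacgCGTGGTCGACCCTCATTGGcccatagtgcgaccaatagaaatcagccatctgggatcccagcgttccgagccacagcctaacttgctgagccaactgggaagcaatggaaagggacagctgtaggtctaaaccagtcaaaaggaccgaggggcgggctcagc
Creld2: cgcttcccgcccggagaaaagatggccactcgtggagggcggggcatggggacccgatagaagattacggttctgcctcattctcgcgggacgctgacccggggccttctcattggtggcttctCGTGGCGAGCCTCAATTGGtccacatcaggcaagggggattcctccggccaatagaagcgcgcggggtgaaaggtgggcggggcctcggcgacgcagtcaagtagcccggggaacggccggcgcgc

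Several genes of wound repair rose. Nrg1, a growth factor of the EGF family that drives crypt regeneration, went from 4.53, 4.77 and 5.17 to 5.43, 7.04 and 8.16 without overlap (2.13 ± 0.38, 4.39-fold, adjusted p = 0.00494). Lamb3, a laminin chain on which migrating epithelium crawls, went from 8.29, 8.54 and 8.71 to 8.85, 9.51 and 10.14 without overlap (1.03 ± 0.17, adjusted p = 0.00377). Krt7, a keratin of reactive epithelium, rose by 1.00 ± 0.18 and Anxa1, a membrane-binding protein that promotes closure of wounds, by 0.67 ± 0.13. Anxa1 did not pass with its probe sets averaged (adjusted p = 0.121). Krt18 was the brightest gene of the repair list not called, at 0.27 ± 0.14. Of 20 repair genes 6 rose and 0 fell, at a median of 0.64, and 2 rose without the 4 arrays of high squamous signal. Among 21 genes of EGF receptors and ligands 3 rose and 1 fell, against 6 and 1 without treated repeat 9 and 1 and 0 without those 4 arrays. Ereg, the ligand epiregulin, ranged from 6.42 to 10.88 in treated mice and was not called (1.91 ± 0.59, adjusted p = 0.0600). Met, the receptor of hepatocyte growth factor, rose by 0.46 ± 0.11. Cd55, which protects cells from complement, rose by 1.08 ± 0.22 (adjusted p = 0.00864).

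Several genes of glucose use and low oxygen rose. Egln3, an oxygen sensor induced by hypoxia, went from 9.09, 9.35 and 9.65 to 9.36, 10.45 and 10.71 (0.95 ± 0.19, adjusted p = 0.00762). Slc2a1, the glucose transporter GLUT1, rose by 0.64 ± 0.14 and Slc16a3, which exports lactate, by 0.80 ± 0.19. Aldoa, a glycolytic enzyme, rose by 0.50 ± 0.06 (adjusted p = 0.000807) on all treated arrays without overlap, and Car9, a carbonic anhydrase of hypoxic cells, by 0.66 ± 0.14. Pgk1, also glycolytic, was at 0.08 ± 0.16, and Vegfa, the classic hypoxia target, fell by 0.34 ± 0.09 (a call lost in 9 of 16 fits that leave out an array). Of 24 genes 7 rose and 1 fell, at a median of 0.27, against 9 and 1 without treated repeat 9 and 2 and 0 without the 4 arrays of high squamous signal.

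Some enzymes that detoxify foreign compounds fell, while most members of the list were not called. Ces2a, a carboxylesterase, went from 10.03, 10.16 and 10.46 to 7.46, 8.51 and 9.05 without overlap (-1.83 ± 0.23, adjusted p = 0.00101). Gsta3, a glutathione transferase, went from 7.32, 8.01 and 8.54 to 3.71, 5.44 and 8.22 (-2.30 ± 0.55, adjusted p = 0.0203, not called without untreated repeat 5). Ugt2b35, which attaches glucuronic acid, fell by 2.15 ± 0.52, with repeat 9 at 8.48 and the other 9 treated arrays below the untreated minimum of 8.09. Cyp2f2 (-1.59 ± 0.39) and Cyp2d26 (-1.28 ± 0.31), both cytochrome P450 oxidases, and Gstm1 (-1.32 ± 0.33) fell too. Sult1b1, a sulfotransferase, rose by 0.48 ± 0.11, and Gsto1, the brightest member not called, stood at 0.15 ± 0.09. Over 43 genes 11 fell and 1 rose, at a median of -0.17. The falls numbered 15 without treated repeat 9, 1 without the 4 arrays of high squamous signal and 7 with the 3'/5' covariate. Slc27a2, a fatty acid transporter, was at 4.54, 4.99 and 5.30 in untreated mice. For this gene 10 of 10 treated arrays read the floor, so it was at least 3.07-fold lower (adjusted p = 5.34e-07). Values at the floor hide the spread between treated mice, so this p-value and the standard error of 0.09 understate the uncertainty. In the fit of both genotypes, which pooled the spread of all groups, the change was -1.64 ± 0.32 (adjusted p = 0.000852). Otc, of the urea cycle, fell by 2.17 ± 0.43, with 5 of 10 treated arrays at the floor, and was not called without the 4 arrays of high squamous signal. The metallothioneins, small proteins that bind zinc and copper, fell without overlap: Mt1 by 1.27 ± 0.23 and Mt2 by 1.29 ± 0.27, though Mt1 did not pass with its probe sets averaged. Ttr, a thyroid hormone and retinol carrier, fell from 11.34, 11.59 and 11.69 to 8.44, 9.15 and 11.03 without overlap (-2.13 ± 0.34), and its other 3 probe sets fell by 1.84 to 2.02.

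Further large falls were in genes with little known role in the colon. Nxpe2, of a family of secreted neurexophilin-like proteins, fell by 2.71 ± 0.59, Cttnbp2, a cortactin-binding protein, by 2.47 ± 0.46, Smpx, a small muscle protein, by 2.37 ± 0.56, and Dnah8, an axonemal dynein, by 2.14 ± 0.39. In each of these 4 genes treated repeat 9 lay within the untreated range and the other 9 treated arrays lay below it. Without the 4 arrays of high squamous signal Nxpe2, Cttnbp2, Smpx and Dnah8 were not called. The other probe sets of Cttnbp2 (-0.19 ± 0.19) and Dnah8 (0.06 ± 0.23) were not called. Ceacam10, a secreted carcinoembryonic antigen relative, fell from 8.85, 8.99 and 9.15 to 6.37, 7.12 and 7.86 without overlap (-1.82 ± 0.20, adjusted p = 0.000807).

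Genes that define plasma cells fell, while 0 T and NK cell genes were called. Plasma cells of the colon secrete IgA, joined to dimers by the J chain. Jchain went from 10.94, 11.89 and 12.31 to 8.61, 9.43 and 10.24, a gap of 0.70 between the groups (-2.30 ± 0.28, 4.94-fold, adjusted p = 0.000807). Igha, the IgA heavy chain, went from 12.48, 12.75 and 12.89 to 10.65, 11.46 and 12.33 without overlap (-1.21 ± 0.20, adjusted p = 0.00428). Mzb1, which helps assemble antibodies, went from 6.68, 7.37 and 7.94 to 4.76, 5.62 and 6.29, also without overlap (-1.67 ± 0.24, adjusted p = 0.00231). Pou2af1, a coactivator of immunoglobulin genes, fell by 1.58 ± 0.36, with 3 treated arrays in the untreated range. The light chain genes Igkv8-30 (-2.21 ± 0.26) and Igkv6-14 (-2.42 ± 0.41) fell as well; immunoglobulin variable genes are near copies of each other, so their probe sets may read several. Of 17 B and plasma cell genes 4 fell and 0 rose, at a median of -0.46, with 4 without treated repeat 9 and 3 without the 4 arrays of high squamous signal. Ccl28, the epithelial chemokine that draws IgA plasma cells to the colon, went from 10.22, 10.53 and 10.60 to 8.54, 9.56 and 10.46 (-0.90 ± 0.22, adjusted p = 0.0218), a call lost without untreated repeat 2. Of 25 T and NK cell genes 0 were called, at a median of 0.05 (-0.04 with the values as deposited); Cd3e was at the floor on 4 of 6 untreated and 5 of 10 treated arrays.

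Interferon-induced genes were higher in most cases and called in a minority. Cxcl10, a chemokine that attracts T cells, went from 4.76, 5.03 and 5.76 to 5.89, 6.51 and 7.38 without overlap (1.45 ± 0.21, adjusted p = 0.00211). Ifit1, an antiviral protein that binds foreign RNA, went from 5.14, 5.49 and 5.87 to 5.96, 7.32 and 9.31, also without overlap (1.87 ± 0.38, adjusted p = 0.00864). Irf9, a subunit of the factor that carries the type I interferon signal, rose by 0.70 ± 0.16, and Irf7, which amplifies it, by 0.69 ± 0.17, the latter not called without untreated repeat 2, 3 or 6. Of 35 genes 33 were higher and 7 rose, at a median of 0.49. The count was 8 without treated repeat 9, 4 without the 4 arrays of high squamous signal, and between 3 and 10 when any array was left out. The interferon-stimulated response element, searched as GAAA, any 2 bases, then GAAA, was found in 3.13% of all promoters, in 13 of 27 listed promoters of this list (48.1%) and in 16 of 661 promoters of all genes that rose (2.42%). The risers Irf7 and Irf9 had no match, and some members with 2 matches were not called. The Ifit1 promoter, at chr19:34640639-34640888 on the plus strand, is shown because the gene rose and its promoter holds 2 matches. They lie on the opposite strand at 104 to 95 and at 85 to 76 bases before the start, in capitals.
Ifit1: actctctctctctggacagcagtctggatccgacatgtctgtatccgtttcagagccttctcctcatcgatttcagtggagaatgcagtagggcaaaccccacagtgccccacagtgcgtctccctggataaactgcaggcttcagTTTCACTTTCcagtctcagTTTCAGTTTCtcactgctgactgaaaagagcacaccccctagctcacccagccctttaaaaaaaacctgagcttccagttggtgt

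Some cytokine and receptor genes that lie around the missing adaptor rose, and others were not called. Of 17 genes of the IL-1 and IL-18 family 2 rose and 0 fell, at a median of 0.43, and 1 rose without the 4 arrays of high squamous signal. Il1rn, the IL-1 receptor antagonist, went from 8.57, 8.73 and 8.88 to 9.19, 9.93 and 10.40 without overlap (1.13 ± 0.17, adjusted p = 0.00231). Il18, a cytokine that the epithelium stores, went from 10.71, 10.97 and 11.32 to 11.07, 11.41 and 11.78 (0.43 ± 0.11, adjusted p = 0.0297, a call lost in 6 of 16 fits that leave out an array). Its secreted inhibitor Il18bp was at 1.22 ± 0.43 (adjusted p = 0.0906) and Il1b at 0.52 ± 0.36 (adjusted p = 0.420). Of 22 genes of Toll-like receptors and adaptors 5 rose and 0 fell, among them Ticam1, the adaptor of the route that bypasses Myd88 (0.68 ± 0.16, adjusted p = 0.0176). Lbp, which carries lipopolysaccharide, rose by 1.51 ± 0.40 (adjusted p = 0.0316, a call lost in 7 of 16 such fits), and Cd14, the bright coreceptor, stood at -0.18 ± 0.14. The count of 5 was 2 without the 4 arrays of high squamous signal and 2 with the 3'/5' covariate.

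Of 25 genes of the IL-6 family and of STAT3 5 rose and 0 fell. Socs3, the feedback inhibitor of this pathway, went from 6.61, 7.22 and 7.39 to 6.77, 9.93 and 11.24 (2.34 ± 0.66, adjusted p = 0.0425, a call lost in 13 of 16 fits that leave out an array). Its other 2 probe sets rose by 2.18 ± 0.60 and 2.54 ± 0.61. Il11, an epithelial repair cytokine of this family, was at 3.32, 3.68 and 4.17 in untreated and 3.84, 5.17 and 8.28 in treated mice and was not called (1.70 ± 0.53, adjusted p = 0.0592). Il6 was at the floor on 6 of 6 untreated and 7 of 10 treated arrays, with a highest treated value of 6.37. The count of 5 ran from 0 to 8 when any array was left out, and was 1 without the 4 arrays of high squamous signal and 1 with the 3'/5' covariate. Matrix remodelling genes had the highest list median after fat cell genes, 0.75 over 24 genes, with 0 called. Mmp3, a protease of activated stroma, lay at 5.90, 7.95 and 9.80 in treated against 5.20, 5.70 and 6.66 in untreated mice (1.91 ± 0.61, adjusted p = 0.0656). Without treated repeat 9, 6 of the 24 rose, and 20 of 24 were higher with all arrays. Ptgs2, the inducible enzyme of prostaglandin synthesis, was at 1.34 ± 0.53 (adjusted p = 0.137), while Ptger4, a receptor of its product, fell from 9.01, 9.18 and 9.31 to 8.23, 8.44 and 8.92 without overlap (-0.66 ± 0.11, adjusted p = 0.00337).

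Markers of infiltrating cells moved modestly. Gpnmb, a glycoprotein of lipid-laden macrophages, went from 5.62, 5.93 and 6.90 to 6.47, 8.32 and 9.55 (2.04 ± 0.44, adjusted p = 0.0126), with repeats 6 and 9 in the untreated range. Of 23 macrophage and monocyte genes 4 rose, 21 were higher and the median was 0.57, with 6 risers without treated repeat 9 and 0 without the 4 arrays of high squamous signal. Lyz2, their bright lysozyme, was not called (0.53 ± 0.32). Of 18 neutrophil genes 2 rose, at a median of 0.35, with 0 without those 4 arrays. S100a8, the abundant neutrophil protein, lay between 3.32 and 8.69 in treated mice and was not called (1.27 ± 0.69, adjusted p = 0.290). All 20 endothelial genes were higher, and 1 rose.

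Genes of enteric neurons and glia were higher too. Ednrb, the endothelin receptor of the neural crest lineage, went from 7.09, 7.37 and 7.61 to 7.25, 8.82 and 9.69 (1.29 ± 0.34, adjusted p = 0.0310, a call lost in 8 of 16 fits that leave out an array). Gfap, a filament of glia, went from 4.50, 5.05 and 5.28 to 5.33, 5.78 and 6.40 without overlap (0.88 ± 0.16, adjusted p = 0.00583), and the neuropeptide Gal rose by 0.95 ± 0.20. Vip, the bright neuropeptide of the submucosal plexus, was not called (0.22 ± 0.25). Of 20 genes 7 rose and 0 fell, at a median of 0.39, against 8 without treated repeat 9, 1 without the 4 arrays of high squamous signal. It was 3 with the 3'/5' covariate and 3 with the smooth muscle mean, which ran from 9.79 to 11.25 in treated and from 10.09 to 10.60 in untreated mice.

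Clock-controlled and glucocorticoid-responsive genes fell in part. Dbp, a clock output factor, went from 10.65, 10.90 and 11.31 to 8.76, 10.04 and 10.45 without overlap (-1.13 ± 0.25, adjusted p = 0.0140), and Ciart, a repressor of the clock, fell by 0.98 ± 0.18. Without the 4 arrays of high squamous signal Dbp was not called. Of 20 clock genes 4 fell and 0 rose, against 6 and 1 without treated repeat 9 and 1 and 1 without those 4 arrays. Hours of killing are not given in the labels, so time of day and treatment cannot be told apart. Of 18 glucocorticoid target genes 5 fell and 1 rose (3 and 1 without those 4 arrays); the riser was Fkbp5, a chaperone of steroid receptors (0.75 ± 0.11, adjusted p = 0.00231). Azoxymethane alkylates DNA, and of 37 DNA repair genes 5 fell and 0 rose, with 0 called without the 4 arrays of high squamous signal. Apex1, which cuts DNA at lost bases, fell by 0.97 ± 0.21. Mgmt, which removes alkyl groups, was at the floor on 3 of 6 untreated and 7 of 10 treated arrays. Among 22 p53 targets 2 rose and 1 fell, with 0 called without those arrays, and Cdkn1a, the cell cycle inhibitor p21, was at -0.25 ± 0.13 (adjusted p = 0.263).

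Whether these changes differed from those of wild-type mice was tested as the difference of the responses, knockout minus wild type, in a fit of all 32 arrays. The test called 10 probe sets of 34945 (0.0286%), all with the more positive response in knockout mice. At an unadjusted p under 0.05, which many genes pass by chance alone, it gave 2141 of 18193 genes by their brightest probe sets. Of the 6 genes called (0.033%), 4 were also called in the knockout response. A4galt, which makes the globo-series glycolipid Gb3, stood at 3.97, 4.47 and 5.44 in untreated and 5.98, 6.54 and 6.97 in treated knockout mice. In wild-type mice it stood at 5.33, 5.53 and 6.07 untreated and 5.26, 5.83 and 6.16 treated, where the groups overlapped. The difference of responses was 1.67 ± 0.26 (adjusted p = 0.00850). Maff, a small partner of leucine zipper factors, rose by 0.87 ± 0.19 in knockout mice, with treated repeat 9 within the untreated range, and stood at -0.42 ± 0.16 in wild-type mice. Its difference was 1.28 ± 0.23 (adjusted p = 0.0289), a call that was lost in 9 of 32 fits that leave out an array. Wsb2, a ubiquitin ligase adaptor, had a difference of 0.58 ± 0.10 (adjusted p = 0.0117), although its other probe sets changed by 0.42 ± 0.11 and 0.18 ± 0.14 in knockout mice. Ppp4r1, a phosphatase subunit, had a difference of 0.55 ± 0.09 (adjusted p = 0.0117).

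**Figure D5:**
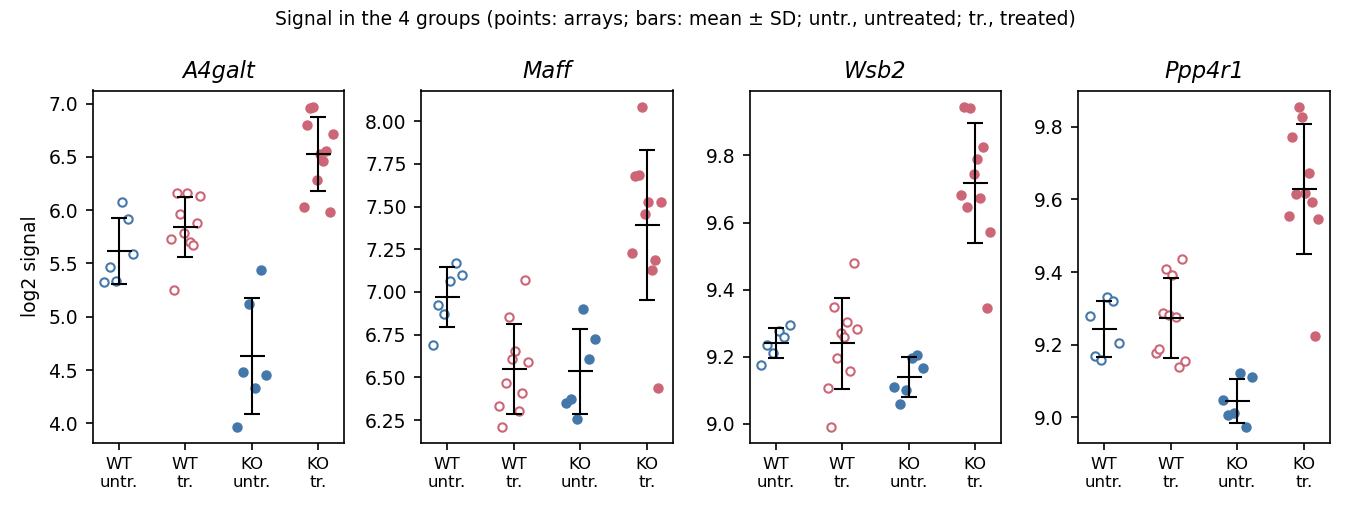
Log2 signals of the 4 genes called both in the knockout response and in the difference of the responses, in 6 untreated and 10 treated mice of each genotype (open points wild type, filled points knockout; bars are mean ± SD). The treated knockout arrays stand above the untreated ones for A4galt, Wsb2 and Ppp4r1, and the wild-type groups overlap in all 4 genes.

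For the other genes named above the difference of the responses did not pass, which does not show that the responses were alike. The wild-type response called 272 genes (1.5%) in the fit of 32 arrays, 86 higher (0.473%) and 186 lower (1.02%). Its changes come from arrays the knockout comparison does not use. That fit normalized all 32 arrays together and pooled the spread of the 4 groups, so knockout arrays also shaped which genes were called. The same fit called 1513 genes higher (8.32%) and 1747 lower (9.6%) in knockout mice, together 17.9%. Of these, 170 were called in knockout mice too, all in the same direction, which is 62.5% of the wild-type calls and 9.7% of the 1748 knockout calls. The 833 genes that rose in knockout mice had a median change of 0.57 there and of 0.16 in wild-type mice, where 701 were higher. The 915 that fell had medians of -0.55 and -0.24, and 867 of them were lower in wild-type mice. Medians of genes chosen for passing in knockout mice are larger there through that choice. Wild-type list medians were -0.73 for mitosis, -0.40 for stem cell and Wnt target genes, -0.34 for salt and water transport, 0.27 for enteroendocrine genes, 0.20 for repair genes and 0.17 for ER chaperones. They were -0.0021 for colon epithelium, -0.13 for absorptive colonocyte, -0.04 for goblet cell and 0.02 for glycolysis and hypoxia genes, whose knockout medians were 0.23, 0.11, 0.11 and 0.27. The 17 squamous genes had a wild-type median of 2.14 against 0.10 in knockout mice, and a fit holding squamous and skeletal muscle signal constant called 4 probe sets in the difference of the responses.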

How the data were processed

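The authors deposited 1 Affymetrix mouse array per sample as log2 signals per probe set, floored at 3.322 and alike in trimmed mean, as the values show; the summarising software is not given in the sources used here. Of 45101 probe sets, 64 controls were left out, 932 carried several gene symbols and 9160 are not named here. The 34945 with 1 symbol were tested. Signals of the 16 knockout arrays were quantile normalized and compared with limma 3.58.1 (lmFit and eBayes, R 4.3.3), with Benjamini-Hochberg adjusted p-values. The difference of the responses was fitted on all 32 arrays with 4 group means. The fit was tested on simulated data. Tables and plots used Python 3.11.15, pandas 2.3.3 and matplotlib 3.10.9.

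Samples were grouped by their titles. The precision of a mean is limited by the number of arrays, 10 and 6. Named were the 12 largest rises and 12 largest falls (leaving out predicted genes and all but 1 immunoglobulin gene per direction), the 6 genes each way with the widest gap between groups, the 8 called genes of largest spread among treated arrays, genes called in both contrasts, and members of gene lists. The members and lists were chosen with earlier results of these data known. Some listed genes had no probe set of 1 symbol and are not analysed here. Alternatives varied the scaling, filters, probe set choice, weights, covariates, thresholds, replicate block and arrays left out.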

Additional observations from a re-analysis of the deposited data

Results flagged for a closer look

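In 28 of 454 groups of arrays checked (6.17%), the lowest or highest array stood apart from the others by Dixon's test; chance gives about 1 in 20. Treated repeat 9 accounted for 8 of them. It was high for Ascl2 (6.561), Otc (6.514), Dnah8 (6.358), the mean of the DNA replication list (7.243) and the mean of the skeletal muscle list (9.827). It was low for Lpcat4 (4.242), Ppp4r1 (9.228) and Muc2 (12.773). Untreated repeat 5 accounted for 6, being low for Serpina3n (3.329), Dnah8 (5.426), Prom1 (10.195), Best2 (8.465) and Spink4 (12.127) and high for Isx (4.190).

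Treated repeat 3 was low for Slc26a3 (12.772) and high for Cd3e (5.340), and stood apart in the means of the cholesterol synthesis list (8.659) and the mast cell list (5.813). Treated repeat 6 was low for Slpi (8.600) and high for Pou2af1 (6.373). Treated repeat 7 was high for Cdc20 (8.746) and for the mean of the mitosis list (6.944), and treated repeat 4 was low for Mep1a (9.252). Untreated repeat 2 was high for Cldn8 (10.514) and low for Aldoa (11.680) and the smooth muscle mean (10.093). Untreated repeat 3 was high for Dmp1 (3.487) and for the mean of the epithelial antimicrobial list (6.661). The other 5 untreated arrays of Dmp1 were at the floor of 3.322, so its gap has no measured size. For Isx, Ascl2, Otc, the treated arrays of Dnah8, and Cd3e the lowest arrays were at the floor, so the range behind the gap is bounded by it.

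By the test of the difference of the responses, 6 genes had a more positive response in knockout than in wild-type mice. The 4 of them also called in the knockout response were A4galt (by 1.67), Maff (by 1.28), Wsb2 (by 0.58) and Ppp4r1 (by 0.55 on the log2 scale).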

How the results depend on the processing

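With 1 array left out, called genes ran from 1053 to 2547, probe sets higher from 909 to 1983, probe sets lower from 878 to 2263 and the difference of the responses from 5 to 198 probe sets; the lowest gene and probe set counts came without untreated repeat 2 and all the highest without treated repeat 9. The difference called 5 without each of 7 arrays: wild-type treated repeats 2 and 8, wild-type untreated repeats 2, 3 and 4, and knockout untreated repeats 1 and 2. Without the 4 arrays of high squamous signal, chosen after seeing the data, 532 probe sets rose and 417 fell, with 575 genes. Probe sets lower numbered 694 with median centring. With 1 probe set per gene 939 rose, and with probe sets averaged 793 rose and 822 fell. In 1 fit of 32 arrays 2638 rose and 2896 fell, with 3260 genes. At an adjusted p under 0.01 the counts were 407, 345 and 440 genes, and with 2-fold added 214, 231 and 290 genes. The difference of the responses called 49 probe sets with median centring, 36 without dim probe sets, 239 with array weights, 65 with 1 weight per group, 17 with a trended prior, 97 with the 3'/5' covariate, 66 with smooth muscle, 4 with squamous and skeletal muscle, and 3 at either stricter threshold. With the replicate block 657 rose and 669 fell, with 801 genes, and the difference called 5. Same-numbered arrays correlated between -0.093 and 0.345, and in repeat 3 alone did the treated array match its own number best. Both knockout arrays of repeat 3 had high squamous signal. The labels describe no pairing by repeat number, and these correlations cannot tell whether the mice were paired. Over the genes named, 2804 of the values under settings other than leaving out 1 array kept their side of the threshold, 283 lost the call and 51 gained it. With 1 array left out, 2439 kept their side, 202 lost the call and 15 gained it. Among genes called in the main fit 0 values turned sign, and turns of sign were not counted for genes not called.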
